A study of Sus scrofa with 16 samples.

Results

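PER1, CRY2, DBP and NFIL3 are 4 genes of the circadian clock that an Affymetrix porcine expression array measured in pig liver and subcutaneous backfat. They were chosen by gene symbol, as every probe set that the array annotation gives 1 of these 4 names. That took in 5 probe sets of the 23999 on the array that are not controls, of which 10069 carry a single gene symbol. PER1 had 2 probe sets and the other genes 1 each. All 4 genes matched a pig gene of the same symbol in RefSeq by their Entrez identifiers.

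The animals were Iberian pigs slaughtered at 211 days, 4 males and 4 females by the design text. Feeding was either high or restricted by 20%, written below as high-fed and low-fed. Each tissue gave 8 arrays, with 2 arrays for each sex at each feeding level, so that a feeding level has 4 arrays per tissue. Males 14 to 17 gave both tissues, with 15 and 16 low-fed and 14 and 17 high-fed. The liver females were 18 and 21 (low-fed) and 19 and 20 (high-fed), and the backfat females were 20 and 23 (low-fed) and 21 and 22 (high-fed). Numbers 20 and 21 therefore carry opposite feeding levels in the 2 tissues, and 10 animal numbers stand in the labels, so females were not matched between tissues. The hour of slaughter, the light cycle, the time since the last meal and whether males were castrated were not stated in the labels used.

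In mammalian cells the clock is a loop of transcription and repression that runs with a period of about a day. ARNTL (BMAL1) and CLOCK together activate genes with an E-box in their promoters, and these include the period and cryptochrome genes, whose proteins return to the nucleus and repress that activation. DBP is also an E-box target, and its protein activates genes that carry a D-box, while NFIL3 (E4BP4) represses through the same D-box element. A further loop runs through RORA, which activates ARNTL. In liver the phase of this clock follows feeding times as well as light, and PER1 is in addition a rapid target of glucocorticoids and of cAMP signalling. A single sample per animal, as here, gives a level at the hour of sampling and not a rhythm.

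The arrays resembled each other: array medians lay between 3.93 and 4.12 on the log2 scale, and 49.4% to 50.9% of probe sets lay above 4, the level used below as the floor of detection. The tissue labels were borne out by marker genes. All 14 hepatocyte markers on the array were above 4 on every liver array. The 8 adipocyte markers had mean levels of 11.09 to 12.03 in backfat and 2.99 to 3.46 in liver, where ADIPOQ, LEP, CIDEA, LIPE, PPARG and LPL were below 4 on all 8 arrays. All 8 skeletal muscle markers stayed below 4 on every array. In backfat the hepatocyte markers were uneven, with mean levels of 4.24 to 6.99 on low-fed and 3.74 to 5.39 on high-fed arrays, and 13 of the 14 were above 4 on the arrays of male 15 and female 20. The array of high-fed female 21 had the lowest median correlation with the other backfat arrays (0.978), and its BioB hybridisation control read 5.89 against 6.96 to 7.60 on the others.

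PER1, a transcriptional repressor of the clock and its fast-responding member, was 1.64-fold higher in low-fed than in high-fed liver, with no overlap between the 2 groups, but the difference did not pass the threshold over all genes. CRY2, DBP and NFIL3 had positive differences of smaller size relative to their spread, and none passed. In backfat all 4 differences were 0.28 or less on the log2 scale. Between the tissues all 4 passed, as 75.7% of all probe sets did, and DBP lost that call in 10 of 27 alternative analyses. Between the sexes in liver DBP and CRY2 did not overlap, as 11.8% of all probe sets did not, and neither passed.

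In liver, PER1 read 9.29 and 9.20 in low-fed females 18 and 21, and 8.68 and 8.80 in low-fed males 15 and 16. In the high-fed animals it read 8.14 and 8.46 in females 19 and 20, and 8.62 and 7.88 in males 14 and 17. Every low-fed liver was above every high-fed liver, by the narrow margin between male 15 at 8.68 and male 14 at 8.62. The group means were 8.99 ± 0.30 (SD, n = 4) and 8.28 ± 0.33 (SD, n = 4). The fitted difference, low-fed minus high-fed, was 0.71 ± 0.19 (SE; 95% interval 0.27 to 1.16), with an adjusted p of 0.318 by limma. PER1 ranked 284 among 12617 probe sets by p, and an exact permutation test over its 8 values gave a two-sided p of 0.0286, the smallest that 4 against 4 allows. Groups that do not overlap always give that p, so it adds nothing to the lack of overlap. The low-fed mean was higher by 0.94 in the females and by 0.49 in the males, with 2 animals against 2 in each. The sex by feeding interaction was 0.45 with an adjusted p of 0.938 by limma, which called 0% of probe sets for that interaction in liver (5.43% had an unadjusted p under 0.05). It called 0% in backfat as well (5.27% unadjusted), where the PER1 interaction was 0.39 (limma adjusted p 0.897).

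As background for that comparison, limma called 0% of the 12617 probe sets tested in liver for feeding, and 1455 of them had an unadjusted p under 0.05 (11.5%). Groups that did not overlap with the low-fed side higher occurred in 2.80% of probe sets, and in either direction in 5.90%. None of the 4 tested probe sets of the clock genes was called, and PER1 alone among them had groups that did not overlap. The second PER1 probe set lay between 2.08 and 2.31 on all 16 arrays, below 4, and was not tested.

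CRY2, a cryptochrome and so a partner of the period proteins in repression, read 6.79 and 6.24 in low-fed females and 5.42 and 5.51 in low-fed males. High-fed livers read 5.89 and 5.75 in females 19 and 20, and 4.13 and 5.62 in males 14 and 17. The feeding groups overlapped, and the lowest value, in male 14, stood apart from the rest. The means were 5.99 ± 0.65 and 5.35 ± 0.82 (SD, n = 4 each), and the difference was 0.64 ± 0.32 (SE; 95% interval -0.13 to 1.41), with a limma adjusted p of 0.496.

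DBP, the D-box activator, read 9.46 and 8.54 in low-fed females 18 and 21, and 7.63 and 7.80 in low-fed males 15 and 16. High-fed livers read 8.50 and 8.12 in females 19 and 20, and 6.72 and 7.83 in males 14 and 17. The order of the livers followed sex before feeding level, with every female above every male. The means by feeding level were 8.35 ± 0.84 and 7.79 ± 0.77 (SD, n = 4 each), and the difference was 0.56 ± 0.31 (SE; 95% interval -0.17 to 1.29), with a limma adjusted p of 0.523. The low-fed mean was higher by 0.69 in the females and by 0.44 in the males, with 2 animals against 2 in each.

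NFIL3, the D-box repressor, read 8.70 and 9.38 in low-fed females 18 and 21, and 9.43 and 9.39 in low-fed males 15 and 16. High-fed livers read 8.76 and 8.67 in females 19 and 20, and 9.53 and 9.09 in males 14 and 17. The groups overlapped fully, and the highest liver of all was high-fed male 14. The means were 9.22 ± 0.35 and 9.01 ± 0.39 (SD, n = 4 each), with a difference of 0.21 ± 0.19 (SE; 95% interval -0.24 to 0.66) and a limma adjusted p of 0.702. Exact permutation tests, two-sided over 4 against 4 livers, gave p = 0.314 for CRY2, 0.429 for DBP and 0.457 for NFIL3.

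**Figure D1:**
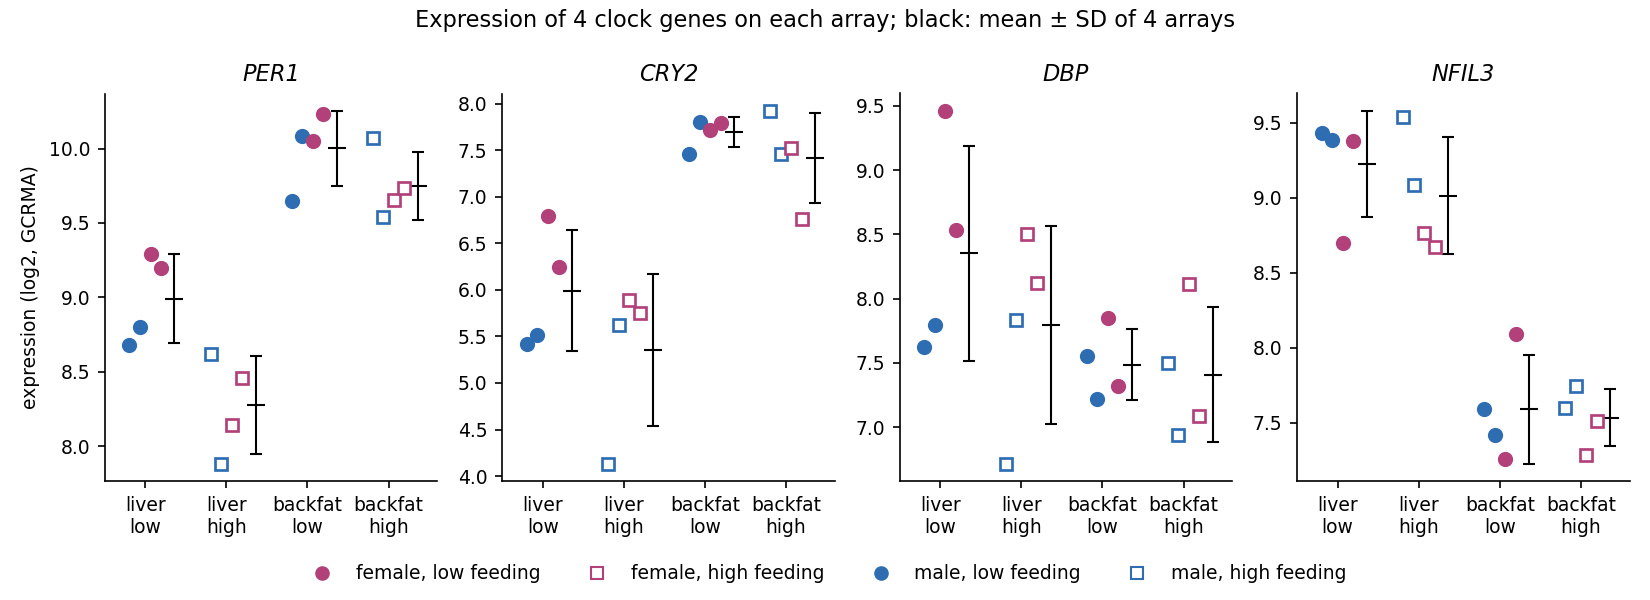
Log2 expression of PER1, CRY2, DBP and NFIL3 on each of the 16 arrays, by tissue and feeding level on the horizontal axis; points are arrays coloured by sex, and black marks are the mean ± SD of 4 arrays. PER1 in low-fed liver (8.68 to 9.29) lies above high-fed liver (7.88 to 8.62), and in liver the DBP points separate by sex.

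Mean levels of cell type markers overlapped between the feeding groups in liver. The 14 hepatocyte markers had mean levels of 14.10 to 14.39 in low-fed and 14.01 to 14.37 in high-fed livers. The 6 macrophage markers, 5 of them above 4 on every liver array, had mean levels of 7.93 to 8.29 in low-fed and 8.18 to 8.56 in high-fed livers. The 7 fibroblast and stellate markers lay at 5.80 to 6.14 and 5.55 to 6.10. Singly, all 5 macrophage markers tested were lower in low-fed liver (median -0.26). All 5 fibroblast and stellate markers tested were higher (median 0.24). An unadjusted limma p under 0.05 held for 1 gene in each of these lists, beside 11.5% of all probe sets. Of the 14 hepatocyte markers, 10 were positive and 4 negative (median 0.04). None of these markers passed, and their part in the PER1 difference was not tested. In whole tissue, fewer cells of a type and less RNA per cell cannot be told apart.

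In backfat, PER1 read 10.05 and 10.23 in low-fed females 20 and 23, and 9.64 and 10.08 in low-fed males 15 and 16. High-fed backfat read 9.66 and 9.73 in females 21 and 22, and 10.07 and 9.54 in males 14 and 17. The groups overlapped, with low-fed male 15 below all high-fed arrays but male 17. High-fed backfat averaged 9.75 ± 0.23 (SD, n = 4), and the low-fed mean exceeded it by 0.25 ± 0.17 (SE; 95% interval -0.17 to 0.67), with a limma adjusted p of 0.615. It was 0.44 within females and 0.06 within males, with 2 animals against 2 in each.

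CRY2 in backfat read 7.72, 7.80, 7.46 and 7.80 in low-fed animals 20, 23, 15 and 16, and 7.53, 6.77, 7.92 and 7.46 in high-fed animals 21, 22, 14 and 17. The groups overlapped, and female 22 lay below all others. The difference was 0.28 ± 0.21 (SE; 95% interval -0.23 to 0.79), with a limma adjusted p of 0.650.

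DBP in backfat read 7.85, 7.32, 7.55 and 7.22 in low-fed animals 20, 23, 15 and 16, and 8.11, 7.09, 7.50 and 6.94 in high-fed animals 21, 22, 14 and 17. High-fed arrays held both the highest and the lowest value, and the difference was 0.08 ± 0.28 (SE; 95% interval -0.58 to 0.74), with a limma adjusted p of 0.935. NFIL3 in backfat read 7.26, 8.10, 7.59 and 7.42 in the low-fed and 7.29, 7.51, 7.60 and 7.74 in the high-fed animals, in the same order. Its groups overlapped fully, with a difference of 0.06 ± 0.20 (SE; 95% interval -0.43 to 0.54) and a limma adjusted p of 0.935.

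In backfat limma called 0% of 12686 probe sets for feeding, and 1410 had an unadjusted p under 0.05 (11.1%). None of the 4 clock genes was called, and none had feeding groups that did not overlap, against 6.61% of all probe sets. The backfat low-fed arrays held the 2 with most hepatocyte markers, while macrophage markers had mean levels of 4.22 to 5.08 in low-fed and 4.90 to 6.18 in high-fed backfat. Their part in these values was not tested.

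Whether feeding acted differently in the 2 tissues was tested in 1 fit over the 16 arrays. The liver difference minus the backfat difference was 0.46 ± 0.27 (SE; 95% interval -0.12 to 1.05) for PER1, with a limma adjusted p of 0.680. It was 0.36 (95% interval -0.55 to 1.28) for CRY2, 0.48 (-0.49 to 1.46) for DBP and 0.15 (-0.48 to 0.79) for NFIL3, with limma adjusted p-values of 0.866, 0.822 and 0.936. None passed, beside 0.0215% of all probe sets. The larger PER1 difference in liver is therefore not shown to exceed that in backfat.

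All 4 genes differed between the tissues, PER1 and CRY2 with more mRNA in backfat and DBP and NFIL3 with more in liver. limma called 75.7% of the 13962 probe sets tested for this contrast, so that 4 of 4 stands against a high background. The labels do not state whether the authors normalized the tissues together or apart, and these differences hold only as far as the deposited levels can be compared between tissues. PER1 ranged from 7.88 through a median of 8.65 to 9.29 in liver, and from 9.54 through 9.89 to 10.23 in backfat. No liver reached the lowest backfat. The liver minus backfat difference was -1.24 ± 0.13 (SE), a 2.37-fold lower level, with a limma adjusted p of 4.43e-06.

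CRY2 had the larger of the 2 gaps in that direction. It ranged from 4.13 to 6.79 in liver, with a mean of 5.67 ± 0.77 (SD, n = 8), and from 6.77 to 7.92 in backfat, with a mean of 7.56 ± 0.36 (SD, n = 8). The tissues touched only where liver of female 18 (6.79) met backfat of female 22 (6.77). The difference was -1.89 ± 0.21 (SE), or 3.69-fold, with a limma adjusted p of 5.78e-06.

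NFIL3 ran the other way, from 8.67 to 9.53 in liver (mean 9.12 ± 0.36, SD, n = 8) and from 7.26 to 8.10 in backfat (mean 7.56 ± 0.27, SD, n = 8). The tissues did not overlap, a pattern shared by 44.9% of all probe sets, and the difference was 1.56 ± 0.14 (SE), or 2.94-fold, with a limma adjusted p of 1.31e-06. DBP ranged from 6.72 to 9.46 in liver (mean 8.07 ± 0.80, SD, n = 8) and from 6.94 to 8.11 in backfat (mean 7.45 ± 0.39, SD, n = 8). The ranges overlapped over the whole of backfat, and the difference was 0.63 ± 0.22 (SE), or 1.54-fold, with a limma adjusted p of 0.0233.

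The DBP contrast was the least stable of the 4. It no longer passed in 10 of 27 alternative analyses, whose limma adjusted p-values ranged from 0.00687 to 0.609. In the 4 males alone, where each liver was compared with backfat of the same animal in a replicate block, it was 0.19 with a limma adjusted p of 0.609. It was also lost without liver of male 17 or of females 18 or 19, or without backfat of males 16 or 17 or of females 22 or 23, at values of 0.49 to 0.58. The PER1, CRY2 and NFIL3 contrasts passed in all 27.

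Within liver, the sexes differed in DBP and CRY2 more than the feeding levels did, though neither passed the threshold. Female livers read 8.12 to 9.46 for DBP and male livers 6.72 to 7.83, with means of 8.66 ± 0.57 and 7.49 ± 0.52 (SD, n = 4 each). The female minus male difference was 1.16 ± 0.31 (SE; 95% interval 0.43 to 1.89), with a limma adjusted p of 0.0965. CRY2 read 5.75 to 6.79 in females and 4.13 to 5.62 in males, with a difference of 0.999 ± 0.32 (SE; 95% interval 0.23 to 1.77) and a limma adjusted p of 0.157. Both separated the sexes without overlap with females higher, as 5.59% of all probe sets did.

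NFIL3, which opposes DBP at the D-box, had the reverse sign. Its mean was 8.88 ± 0.34 in female and 9.36 ± 0.19 in male livers (SD, n = 4 each), and the difference was -0.48 ± 0.19 (SE; 95% interval -0.93 to -0.03), with a limma adjusted p of 0.231. The sexes overlapped through female 21 at 9.38. PER1 differed by 0.28 ± 0.19 (SE), with a limma adjusted p of 0.498. None of the 4 genes was called, against 4.53% of all probe sets in liver, and the CRY2 difference passed only when high-fed male 17 was left out (1.37, limma adjusted p 0.0234, within a range of 0.0234 to 0.330 over 19 alternatives).

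The mean level of the hepatocyte markers also separated the sexes in liver, narrowly, at 14.25 to 14.39 in females and 14.01 to 14.24 in males. Gene by gene the sign was mixed: 10 of the 14 read higher in female livers and 4 read lower. The median over the 14 was 0.08, and limma called 1 of them. Macrophage markers overlapped, at 8.02 to 8.41 in females and 7.93 to 8.56 in males. Their part in the sex differences was not tested.

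Backfat gave no such pattern. The female minus male differences there were 0.08 for PER1, -0.21 for CRY2, 0.29 for DBP and -0.05 for NFIL3, with limma adjusted p-values of 0.948, 0.896, 0.887 and 0.980, and 0.110% of probe sets were called. No member had sexes that did not overlap there, against 3.54% of probe sets. The sex by tissue interaction, added after the values had been seen, was 1.21 ± 0.42 (SE; 95% interval 0.29 to 2.12) for CRY2 and 0.87 ± 0.44 (SE; 95% interval -0.10 to 1.85) for DBP. Their limma adjusted p-values were 0.207 and 0.432, in a comparison that called 2.21% of probe sets, so a difference between the tissues in the sex contrast was not established for either gene.

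**Figure D2:**
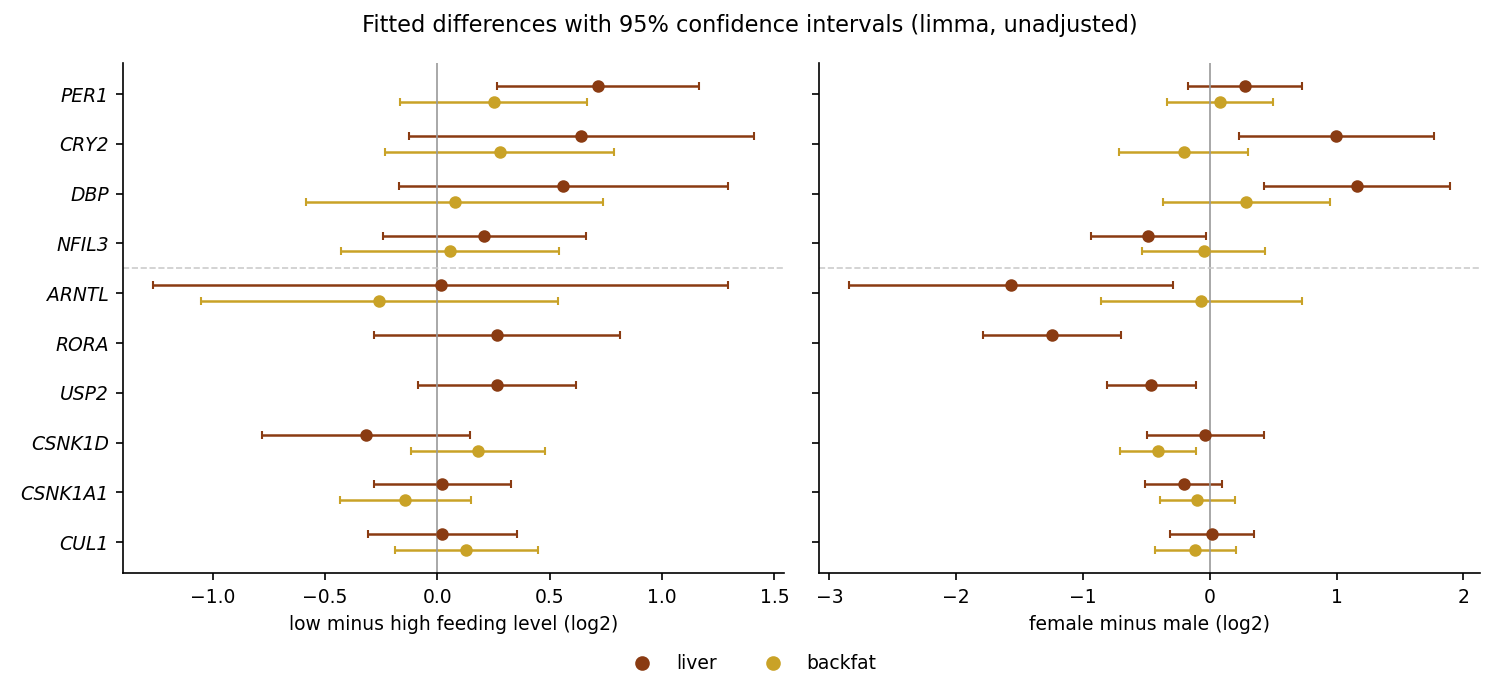
Fitted log2 differences with 95% intervals for the 4 genes and 6 other clock genes, for feeding (low-fed minus high-fed) and for sex (female minus male), in liver and in backfat; comparisons with too few arrays above 4 are left out. In liver the PER1 interval for feeding (0.27 to 1.16) and the DBP and CRY2 intervals for sex (0.43 to 1.89 and 0.23 to 1.77) lie above 0.

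Of the 37 clock genes in the 3 lists used here, 13 had a named probe set, and these 4 genes leave 9 others. They were ARNTL, RORA and BHLHE40 of the core loops, and CSNK1D, CSNK1A1, CUL1, USP2, PRKAA1 and PRKAA2 among the kinases, ubiquitin ligases and deubiquitinases that act on clock proteins. The 5 core genes tested in liver (PER1, CRY2, ARNTL, RORA and BHLHE40) all had positive feeding differences averaged over the sexes. The median was 0.27 against -0.01 over all probe sets, and 0 of 5 passed. PER1 and CRY2 were positive within each sex. ARNTL and RORA were negative within females (-0.36 and -0.11) and positive within males (0.39 and 0.64). BHLHE40, dim in males, was also negative within females (-0.08). The sign of ARNTL turned without liver of males 16 or 17 or of females 20 or 21. In backfat 2 of 5 were positive, with a median of -0.26 against 0.01, and 0 of 5 passed. RORA and BHLHE40 were above 4 there on no more than 2 of 4 arrays of a feeding level, so their signs carry little weight. The median was the value of ARNTL, which was also dim in backfat. The kinases and ligases had medians of 0.02 in liver over 5 genes and -0.00042 in backfat over 4.

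ARNTL, the activator of the loop, varied more between livers than any of the 4 genes. It read 7.25, 6.16, 6.49 and 4.61 in males 14, 15, 16 and 17, and 4.33, 5.10, 4.38 and 4.44 in females 18, 19, 20 and 21. Males 14, 15 and 16 stood high, and male 17 lay among the females. The female minus male difference was -1.57 ± 0.54 (SE), with a limma adjusted p of 0.177. It ranged from -2.23 to -0.91 with 1 liver left out, and passed without male 17 (-2.23, limma adjusted p 0.0119, within a range of 0.0119 to 0.383 over 19 alternatives). In backfat ARNTL was dim, at 3.62 to 5.11, and its tissue difference of 0.92 ± 0.35 (SE; limma adjusted p 0.0300) no longer passed in 8 of 27 alternatives (adjusted p-values of 0.000494 to 0.0721 over all 27). These were the one that kept dim probe sets, and those without liver of male 16 or females 19 or 21, or without backfat of males 14 or 15 or females 20 or 21, at 0.79 to 0.92.

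RORA, which activates ARNTL, was lower in female liver. Male livers 14, 15, 16 and 17 read 6.84, 7.49, 7.53 and 6.90, and female livers 18, 19, 20 and 21 read 6.38, 6.21, 5.78 and 5.40. The sexes did not overlap, and the difference was -1.24 ± 0.23 (SE), with a limma adjusted p of 0.0344. Among the clock genes this was the only sex difference in liver that passed, beside 4.53% of all probe sets that passed and 11.8% whose sexes did not overlap. It no longer passed in 7 of 19 alternatives, with adjusted p-values of 0.00324 to 0.126 over all of them: when dim probe sets were kept, and without the livers of males 14, 15, 16 or 17 or of females 19 or 20, at differences of -1.14 to -1.35. In backfat RORA lay at 3.21 to 4.47, with 2 of 8 arrays above 4.

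Of the genes acting on clock proteins, 3 were above 4 on every array on their brightest probe set. CUL1, the scaffold of SCF ubiquitin ligases, read 8.63 to 9.08 in liver and 9.63 to 10.09 in backfat, a difference of -1.05 ± 0.09 (SE; limma adjusted p 9.52e-07). CSNK1A1, a casein kinase 1, read 9.49 to 9.95 in liver and 10.36 to 10.65 in backfat, a difference of -0.74 ± 0.08 (SE; limma adjusted p 7.33e-06). Another CSNK1A1 probe set read 9.10 to 9.47 in liver and 9.44 to 9.86 in backfat, with overlap, and a further one was below 4 on every array. Over 27 alternatives the CSNK1A1 difference was -0.78 to -0.35 and passed in all. CSNK1D, a casein kinase that phosphorylates period proteins, differed by -1.03 ± 0.12 (SE; limma adjusted p 8.20e-06) on its brightest probe set. Its other probe sets disagreed, and over the mean of all of them the difference was -0.12 (limma adjusted p 0.286).

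USP2, a deubiquitinase whose mRNA is rhythmic in liver, read 8.02 to 9.02 in liver, while in backfat 1 of 8 arrays was above 4. BHLHE40, a repressor of the loop, was too dim for a sex difference in liver, at 4.72 to 5.54 in females and 3.41 to 4.42 in males, 2 of them above 4. PRKAA2, a catalytic subunit of AMP-activated kinase, was below 4 on every backfat array.

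Across the 8 livers, CRY2 and DBP gave the same order of animals. Their Pearson r was 0.972 (exact permutation p = 7.44e-05, adjusted 0.00149 over 20 relations) and their Spearman rho was 1 (exact permutation p = 4.96e-05, the smallest that 8 arrays allow, adjusted 0.000992). Without the 2 livers farthest from the CRY2 median r was 0.934. In each such check below the median was that of 1 gene of the pair. It was the gene that comes first in the order PER1, CRY2, DBP, NFIL3, ARNTL. With the sex means subtracted, a step added after the values had been seen, it was 0.953. Both ran from high-fed male 14, lowest, to low-fed female 18, highest.

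ARNTL ran against both. Its r with CRY2 was -0.837 (exact permutation p = 0.00188, adjusted 0.0188), with rho = -0.857 (exact permutation p = 0.0107, adjusted 0.0536). Without the 2 livers farthest from the median r was -0.691, and with the sex means subtracted it was -0.666. With DBP, ARNTL had r = -0.798 (exact permutation p = 0.0110, adjusted 0.0732) and rho = -0.857 (adjusted 0.0536 by the exact permutation test), and r was -0.615 without 2 livers and -0.530 with the sex means subtracted. NFIL3 had r = 0.728 with ARNTL and -0.695 with DBP, each with an exact permutation p of 0.156 after adjustment. With the sex means subtracted these were 0.425 and -0.322, and without 2 livers they were 0.581 and -0.405. The means of these 4 genes also lay apart between female and male livers, and the animals of a sex share that offset in each relation. The exact permutations ran over all livers without regard to sex or feeding level, so their p-values include that offset.

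PER1 stood outside this order in liver, with r between -0.04 and 0.40 with the other 4 genes. Its r with NFIL3, 0.163 over all 8 livers, was 0.675 without the 2 livers farthest from the median and 0.575 with the sex means subtracted. In backfat DBP and ARNTL had r = -0.784 (exact permutation p = 0.0214, adjusted 0.107) and rho = -0.786. Without the 2 arrays farthest from the DBP median r was -0.996, over 6 arrays. ARNTL was dim there, at 3.62 to 5.11 over the 8 backfat arrays. CRY2 and DBP, so close in liver, had r = 0.305 in backfat. PER1 and CRY2 had r = 0.620 there, with an exact permutation p of 0.213 after adjustment.

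**Figure D3:**
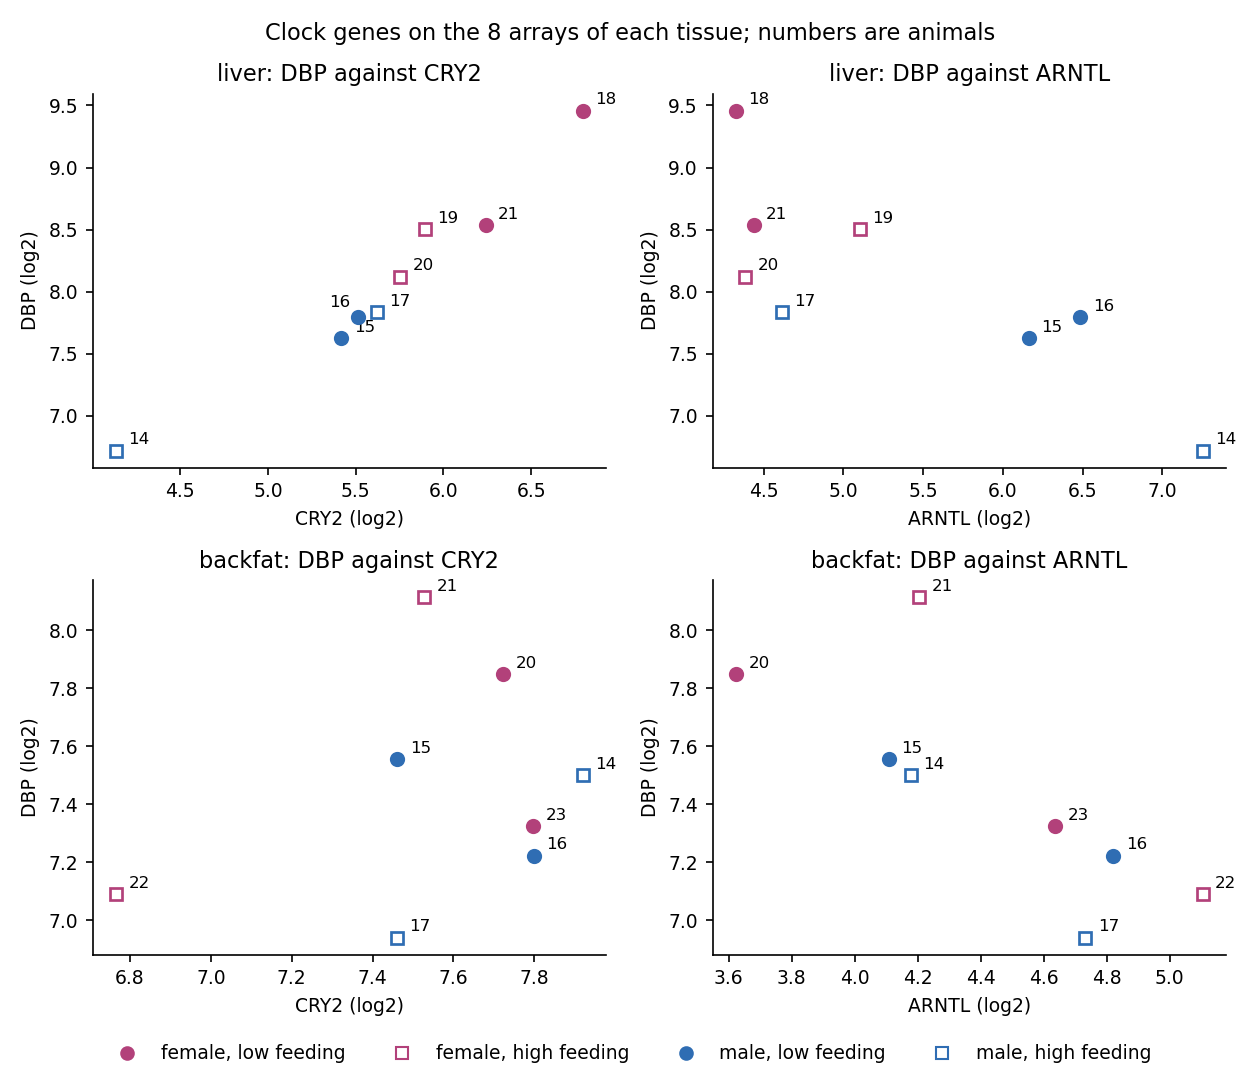
Log2 levels of DBP on the vertical axis against CRY2 and against ARNTL on the horizontal axis, in 8 livers and 8 backfat arrays. Each point is 1 array with its animal number, coloured by sex. In liver DBP rises along CRY2 (r = 0.972) and falls along ARNTL (r = -0.798), while in backfat r is 0.305 for CRY2 and -0.784 for ARNTL.

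**Figure D4:**
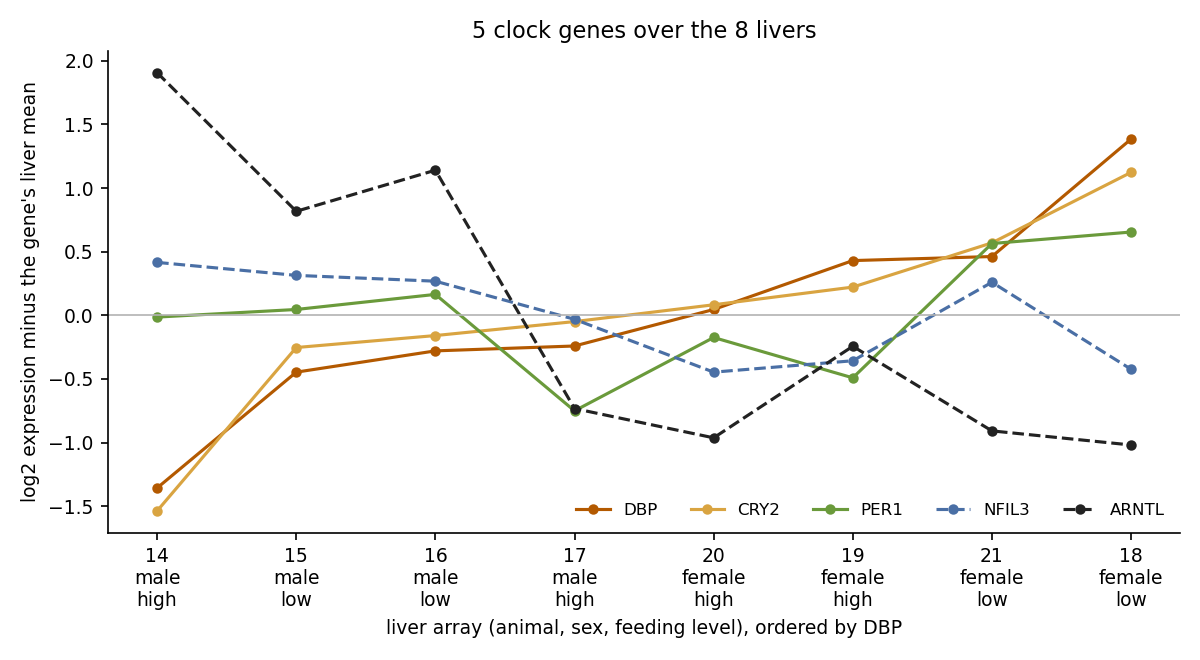
Deviation of DBP, CRY2, PER1, NFIL3 and ARNTL from their own mean over the 8 livers (log2), with the animals ordered from the lowest to the highest DBP. The lines of DBP and CRY2 run together from male 14 to female 18, ARNTL runs from high to low, and PER1 follows neither, with low-fed animals 15, 16, 18 and 21 above high-fed animals 14, 17, 19 and 20.

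The genes whose pattern was most like each member were taken by Pearson r over the 8 arrays of a tissue, among 4923 genes in liver and 4916 in backfat, as a description only. In liver the nearest to PER1 were PRPF39 (r = 0.955), DPF2 (0.940) and SF1 (0.934). For CRY2 they were DBP (0.972), MACF1 (0.966) and CHDH (0.948), and for DBP they were CLPB (0.979), CRY2 (0.972) and XPO7 (0.959). NFIL3 had XRCC5 (0.974), TMEM181 (0.963) and RFWD2 (0.962). CRY2 and DBP stood among each other's nearest 3 genes.

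The nearest genes in backfat shared no name with those in liver. For PER1 they were ADAMTS1 (0.937), CCND2 (0.930) and KLF11 (0.928). For CRY2 they were LYPLAL1 (0.993), FOS (0.959) and SLC1A5 (0.955). EBNA1BP2 (0.983), FRA10AC1 (0.955) and CEBPZOS (0.954) were nearest to DBP, and THAP4 (0.946), AKAP13 (0.930) and HMOX1 (0.929) to NFIL3. Between 0.142% and 0.609% of the genes had r above 0.9 with a given member in a tissue, over 8 arrays that share sex and feeding level.

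Genes of the inputs that reach PER1 were counted beside it. Of 13 glucocorticoid response genes tested in liver, 7 had positive and 6 negative feeding differences, with a median of 0.05, and 0 passed. TSC22D3 (GILZ), a glucocorticoid-induced leucine zipper, averaged 8.33 ± 0.35 in low-fed and 7.79 ± 0.28 in high-fed liver (SD, n = 4 each), a difference of 0.55 ± 0.21 (SE; limma adjusted p 0.405). Over 19 alternatives the TSC22D3 difference ranged from 0.28 to 0.74. FKBP5, a chaperone of the glucocorticoid receptor, differed by 0.52 ± 0.21 (SE), with a limma adjusted p of 0.409. Its groups overlapped widely, at 8.09 to 10.86 in low-fed and 7.76 to 10.47 in high-fed liver. CDKN1A and MT1A, of the same list, went the other way, by -0.58 ± 0.25 and -0.50 ± 0.25 (SE). Their limma adjusted p-values were 0.434 and 0.489. Of 7 CREB and fasting response genes, 5 were positive in liver with a median of 0.34 and 0 passed, and NR4A2, an orphan nuclear receptor, differed by 0.61 ± 0.15 (SE; limma adjusted p 0.314).

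In backfat the glucocorticoid genes were positive in 9 of 12 with a median of 0.19, and the CREB and fasting genes in 5 of 6 with a median of 0.97, of which 4 had an unadjusted limma p under 0.05, as 11.1% of all probe sets did, and 0 of either list passed. In the same comparison 11 of 12 hepatocyte markers were positive (median 1.44) and 5 of 5 macrophage markers negative (median -0.96), and their part in these values was not tested. Of 10 immediate early genes, 6 were positive in liver and 5 in backfat, with medians of 0.17 and 0.04. EGR1, a growth-induced transcription factor of that list, averaged 11.45 ± 0.26 in low-fed and 10.23 ± 0.77 in high-fed backfat (SD, n = 4 each), a difference of 1.21 ± 0.24 (SE; limma adjusted p 0.212).

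Downstream, of 10 genes with known clock or D-box control tested in liver, 5 were positive and 5 negative, with a median of -0.01, and 0 passed. Those with an unadjusted limma p under 0.05 were 2, both lower in low-fed liver, against 11.5% of all probe sets in either direction. DIO1, a deiodinase that activates thyroid hormone, averaged 6.79 ± 1.85 in low-fed and 8.93 ± 0.15 in high-fed liver (SD, n = 4 each), a difference of -2.14 ± 0.30 (SE; limma adjusted p 0.266). Its low-fed females read 4.75 and 5.80 and its low-fed males 7.81 and 8.81, and the groups overlapped through the last of these. The DIO1 difference passed with all 16 arrays in 1 fit (limma adjusted p 0.0159), within a range of 0.0158 to 0.708 over 19 alternatives. That fit pooled the spread of both tissues, and DIO1 was below 4 on every backfat array. The estimate of that fit was unchanged at -2.14. CYP7A1, which starts bile acid synthesis from cholesterol, read 2.64 to 7.70 in low-fed liver, where 2 of 4 arrays were above 4, and 5.81 to 9.01 in high-fed liver (limma adjusted p 0.365). In backfat 5 of 8 were positive, with a median of 0.12, and 0 passed. LPIN1, a phosphatidate phosphatase and coactivator, averaged 12.19 ± 0.40 in low-fed and 11.41 ± 0.28 in high-fed backfat (SD, n = 4 each), without overlap, a difference of 0.78 ± 0.21 (SE; limma adjusted p 0.283).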

How the data were processed

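Per probe set of an Affymetrix porcine array, the authors deposited log2 values made with GCRMA per the submitters' processing notes, with no version and no statement of whether all arrays were run together. GCRMA corrects background, normalizes arrays and summarises probes, and holds unexpressed probe sets near a low floor. Of 24123 probe sets, 124 controls were left out, 10069 of the rest had 1 symbol, 198 several and 13732 none in the platform annotation, and 0 columns of values were unused. No 2 arrays were identical. No scan date was given, so no batch could be tested. Depth has no meaning for arrays, and their number limits the precision.

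Group means were fitted with limma 3.58.1 in R 4.3.3 over all probe sets above 4 on at least 2 arrays of the fit, with Benjamini-Hochberg adjustment and a threshold of 0.05. Feeding, sex and the sex by feeding interaction were fitted within each tissue. Tissue and its interactions with feeding and sex were fitted over all 16 arrays. Single genes were also compared by exact permutation tests. The fits were tested on simulated data. Where probe sets shared a gene, the brightest on average stood for it. No difference was given where only 1 or 2 of 4 arrays of a group were above 4.

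Males 14 to 17 gave both tissues, by their animal numbers. The main fits had no animal block, and the males were paired only in the block alternatives. Deviations of the males from their group means correlated between tissues at 0.0874 (14 and 17) and 0.0549 (15 and 16). With 2 arrays per group the deviations mirror each other, so both animals share 1 value, which cannot check the pairing. The random-block correlation was 0.0257. The alternatives were other filters, variance models, normalizations, floors, array weights, fewer terms, all arrays in 1 fit, blocks, the mean of all probe sets, and each array left out.

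Named were the 4 genes, every measured gene of the clock lists, examples among the 4 genes of lowest p for feeding in each tissue of each response list, and the 3 genes most like each member. Genes and lists were chosen with earlier results of these data known.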

Additional observations from a re-analysis of the deposited data

Results flagged for a closer look

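In 119 groups of 4 or 8 arrays of the clock genes, 10 held an array far from the others by Dixon's test, which by chance marks about 1 group in 20. The groups of a gene share arrays, and an array can be marked in more than 1 of them. The count of 10 therefore cannot be set against that rate. CRY2 in liver of high-fed male 14 read 4.13, apart from the other high-fed livers (up to 5.89) and from the other males (up to 5.62). CRY2 in backfat of high-fed female 22 read 6.77, against up to 7.92 over the 8 backfat arrays. NFIL3 in liver of low-fed female 18 read 8.70, below the other low-fed livers (up to 9.43), and that of low-fed female 21 read 9.38, above the other females (from 8.67). ARNTL in liver of high-fed female 19 read 5.10, above the other females (from 4.33). In backfat, CSNK1A1 of high-fed female 22 read 10.36, below the other high-fed arrays (up to 10.65), and USP2 of low-fed male 16 read 4.64, the 1 array above 4. PRKAA1 in backfat of high-fed female 21 read 4.98, above the other high-fed arrays and above all 8 (from 3.58), and this array also had the lowest hybridisation control.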

How the results depend on the processing

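Arrays per group, 2 to 4, limit every comparison here. In liver the feeding differences of PER1, CRY2, DBP and NFIL3 kept their sign in all 19 alternatives, at 0.34 to 0.90, 0.27 to 1.01, 0.28 to 0.84 and 0.04 to 0.38, and passed in 0. The lowest PER1 value, 0.34, was the mean of its probe sets, of which the dimmer lay below 4 on every array. With each array left out in turn PER1 stayed at 0.53 to 0.90. In the tissue contrast PER1, CRY2 and NFIL3 passed in all 27. The cause was not tested for any change below.

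With dim probe sets kept, the DBP tissue contrast was 0.63 (limma adjusted p 0.0514), and with fewer model terms 0.63 (0.0613). Keeping dim probe sets also gave 15 calls for feeding by tissue (3 otherwise) and 333 for sex in liver (572 otherwise). A filter at 6, an intensity trend, or quantile normalization each gave 1 call for feeding by tissue. For feeding in backfat (0 otherwise), the mean of all probe sets gave 1 call and fewer terms gave 2. All 16 arrays in 1 fit gave 11 calls for feeding in liver, 53 for feeding in backfat, 907 for sex in liver and 27 for sex in backfat (14 otherwise). With the males' numbers as a random replicate block these were 11, 54, 910 and 26. In the 4 males alone with a fixed replicate block, which also leaves out the 8 female arrays, the DBP contrast was 0.19 (limma adjusted p 0.609) and feeding by tissue had 0 calls. The random block, over all arrays, changed no call of the 4 genes.

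With each array left out in turn, calls ranged from 0 to 1 for feeding in liver, 0 to 1 for feeding in backfat, 1 to 34 for feeding by tissue (34 without backfat female 22), 177 to 449 for sex in liver (177 without liver male 16, and fewer than the full count by over 1.5 times without any liver but that of male 14), 174 to 386 for sex by tissue (308 otherwise, 174 without backfat male 16) and 0 to 1 for sex by feeding in liver (1 without liver male 17). The DBP tissue contrast ranged from 0.49 to 0.77. In liver the CRY2 sex difference ranged from 0.63 to 1.37, its sex by tissue term from 0.83 to 1.58 (limma adjusted p 0.0260 without liver male 17), and the ARNTL feeding difference from -0.64 to 0.68. In backfat the feeding differences of DBP and NFIL3 ranged from -0.18 to 0.33 and -0.15 to 0.26, and the sex differences of PER1 and NFIL3 from -0.051 to 0.21 and -0.26 to 0.16. The feeding by tissue terms of CRY2 and NFIL3 ranged from -0.0084 to 0.74 and -0.055 to 0.36. The sex by feeding terms ranged from -0.64 to 0.85 (CRY2), -0.31 to 0.81 (DBP) and -0.12 to 0.56 (NFIL3) in liver, and from -0.70 to 0.33 for DBP in backfat.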

Other observations

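FKBP5, the glucocorticoid receptor chaperone, showed in liver a sex difference that exceeded those of the clock genes. It read 9.96 to 10.86 in male and 7.76 to 8.73 in female livers, with means of 10.52 ± 0.41 and 8.19 ± 0.40 (SD, n = 4 each) and no overlap. The female minus male difference was -2.33 ± 0.21 (SE; limma adjusted p 0.00292), a 5.01-fold lower level in females. In backfat FKBP5 averaged 10.21 ± 0.54 in males and 9.75 ± 0.46 in females, with overlap. Its other probe set had a liver difference of -1.65 ± 0.37 (SE), with a limma adjusted p of 0.0573 and no overlap. FKBP5 was named by its feeding difference, and its sex difference was singled out after the values had been seen.

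LPIN1 had a second probe set in backfat with a feeding difference of 0.80 ± 0.14 (SE; limma adjusted p 0.198), which also did not overlap between feeding levels.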
